A study of Mus musculus with 22 samples.

Results

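The complement system is a set of plasma and cell surface proteins that tag targets for removal by phagocytes, and in the brain it is best known for marking synapses that microglia then engulf. C1q, assembled from the products of C1qa, C1qb and C1qc, starts the classical pathway, and its activation leads to cleavage of C4 (C4b in the mouse) and then of C3, whose fragments are deposited on the target. Fragments of C3 bound to a target are recognized by complement receptor 3, the integrin formed by Itgam (CD11b) and Itgb2 (CD18), while the soluble fragments C3a and C5a are sensed by the G-protein-coupled receptors C3ar1 and C5ar1. These 9 genes were chosen by their symbols, as components and receptors of this pathway, out of 55385 genes in the transcript index, and their levels are described here in ribosome-bound mRNA of 6 brain cell types.

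The mRNA was obtained by RiboTag, in which Cre recombinase switches on an HA-tagged copy of the ribosomal protein Rpl22 in 1 cell type, and tagged ribosomes with their mRNA are immunoprecipitated from the homogenized tissue. All mice were 6 weeks old, carried 1 floxed Rpl22 allele (Rpl22 Fl/+) and a Cre transgene or knock-in, and had no other mutation or experimental challenge named in the labels. Microglia (Tmem119-cre) and astrocytes (labelled Aldh1-cre, and in the methods an Aldh1l1-cre/ERT2 line) were taken from cortex with tamoxifen-inducible Cre, given by oral gavage. For neurons the Cre lines were not inducible: Rbp4-Cre gave layer V cortical neurons when cortex was used and, from hippocampus, dentate gyrus granule cells, Gabra6-Cre gave granule cells of the cerebellum, and Dlx6a-Cre gave inhibitory interneurons of the hippocampus, with 2 mice pooled per replicate. Each cell type had 3 biological replicates, of mixed sex, and 18 of the 22 libraries were compared, 1 for each replicate. The microglia and interneuron libraries were all labelled batch 2 and the others used here were labelled batch 1. Levels are given in TPM, a level scaled for transcript length and library size, and comparisons as log2 fold changes of counts. In such bulk libraries, fewer cells of a type and less RNA per cell cannot be told apart.

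Marker genes were set against the labels. Tmem119, P2ry12 and Cx3cr1, which mark microglia, were at 1131 ± 37.9, 1591 ± 99.9 and 1652 ± 43.7 TPM in microglia (SD, n = 3) and at 4.66 ± 0.970, 11.4 ± 1.68 and 5.94 ± 1.38 TPM in astrocytes. The Tmem119 driver was inserted at the Tmem119 gene, so that gene's level is not independent of the driver. Aldh1l1 and Aqp4, which mark astrocytes, were at 348.7 ± 14.5 and 416.3 ± 39.6 TPM in astrocytes and at 9.59 ± 0.593 and 6.58 ± 1.25 TPM in microglia. Among neurons, the markers of dentate granule cells, cerebellar granule cells and interneurons summed highest in the libraries so labelled, at 446.3 to 504.1, 5442 to 5557 and 3211 to 3371 TPM. The 3 layer V neuron markers did not, with 197.1 to 218.4 TPM in dentate gyrus granule cells against 170.3 to 173.5 TPM in layer V cortical neurons. Among these, Bcl11b was higher in dentate gyrus granule cells, at 465.8 to 549.9 CPM (counts scaled to library size) against 151.2 to 161.2 CPM. Fezf2 was higher in layer V cortical neurons, at 109.5 to 110.7 against 13.5 to 18.6 CPM. So was Rbp4, at 21.2 to 22.2 against 9.03 to 10.7 CPM. Markers of other cells were present as well. The 6 oligodendrocyte markers summed to between 2855 and 3059 TPM in the interneuron libraries, near the level of the interneuron markers, and to at most 1212 TPM in any other library, and choroid plexus markers summed to between 165.9 and 277.5 TPM in interneurons. The 7 mural cell and fibroblast markers summed to between 210.7 and 709.8 TPM in the microglia libraries and to at most 176.4 TPM in any other library, and the 5 endothelial markers to between 275.1 and 405.7 TPM in microglia and at most 58.1 TPM elsewhere. The 6 markers of border macrophages, close relatives of microglia at the brain surface and along vessels, had a low sum that was also highest in microglia. It was between 7.93 and 11.8 TPM there and at most 4.16 TPM in any other library compared. In astrocyte replicate 1 the 3 choroid plexus markers summed to 3665 TPM, against 6.20 and 12.8 TPM in the other astrocyte libraries.

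The C1q chains lie side by side in a span of 18.7 kb on chromosome 4 of GRCm38, each on the minus strand. C1qa (ENSMUSG00000036887.5) is annotated from 136895917 to 136898803, C1qc (ENSMUSG00000036896.5) from 136889804 to 136893065 and C1qb (ENSMUSG00000036905.8) from 136880129 to 136886187. Windows of 250 bases before to 50 bases after the annotated start were in the RefSeq table (GRCm38.p6) for 6 of the 9 genes, namely C1qb, C1qc, C3, C3ar1, C5ar1 and Itgam, and not for C1qa, C4b or Itgb2. Those of C1qb, C1qc and Itgam are shown because these genes had the highest microglial levels among the 6. The sequence runs 5′ to 3′ along the gene, and capitals mark GAGGAAG, the core bound by the myeloid factor PU.1, or its reverse complement.
C1qb (chr4:136886151-136886450, minus strand): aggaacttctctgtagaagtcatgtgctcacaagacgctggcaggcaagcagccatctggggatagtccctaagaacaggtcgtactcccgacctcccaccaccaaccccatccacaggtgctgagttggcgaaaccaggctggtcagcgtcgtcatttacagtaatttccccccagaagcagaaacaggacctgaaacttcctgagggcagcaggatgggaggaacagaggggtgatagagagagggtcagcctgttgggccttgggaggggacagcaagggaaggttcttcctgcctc
C1qc (chr4:136892865-136893164, minus strand): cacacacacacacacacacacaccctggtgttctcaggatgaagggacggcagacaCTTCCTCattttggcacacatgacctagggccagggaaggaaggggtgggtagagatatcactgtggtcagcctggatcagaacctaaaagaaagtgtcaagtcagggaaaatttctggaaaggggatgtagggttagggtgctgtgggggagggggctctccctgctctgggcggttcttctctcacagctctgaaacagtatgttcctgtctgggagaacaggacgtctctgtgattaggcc
Itgam (chr7:128062390-128062689, plus strand): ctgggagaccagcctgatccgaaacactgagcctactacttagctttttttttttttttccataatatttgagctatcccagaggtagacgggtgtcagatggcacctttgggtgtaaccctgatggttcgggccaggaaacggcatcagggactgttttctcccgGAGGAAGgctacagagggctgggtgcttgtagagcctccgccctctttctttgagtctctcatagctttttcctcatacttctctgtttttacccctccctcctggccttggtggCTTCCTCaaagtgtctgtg
The Itgam window held GAGGAAG at -84 on the gene's own strand and at 32 on the opposite strand, counted from the start, and the C1qc window held it at -194 on the opposite strand. C1qb, C3, C3ar1 and C5ar1 held no such match. Of all 32851 promoter windows of the same length, 13.6% held this motif on either strand. A second motif, GAAANNGAA, the core of interferon response elements, was found at -66 on the opposite strand of the C5ar1 window alone among the 6, and in 8.56% of all windows. No match of one motif overlapped a match of the other, and the matches are letters in a window and not measured binding sites.

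In microglia the C1q chains were among the most abundant ribosome-bound mRNAs of any gene. C1qb was at 7989, 8304 and 8182 TPM in microglia replicates 1, 2 and 3 and ranked 8 of all genes by mean TPM. C1qa was at 7306, 7723 and 7393 TPM (rank 13), and C1qc at 6367, 6563 and 6313 TPM (rank 17). Together the chains made up 2.21% ± 0.048 (SD, n = 3) of the TPM of a microglia library, against 0.00443% ± 0.000750 in astrocytes and at most 0.000676% ± 2.7e-05 in a neuron type. The chains kept nearly fixed proportions in microglia, where C1qb was 1.09 ± 0.016 times and C1qc 0.858 ± 0.011 times the level of C1qa.

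Outside microglia the same chains were found at far lower levels. In astrocytes C1qa was at 17.9, 17.9 and 12.5 TPM, C1qb at 16.4, 16.3 and 12.2 TPM and C1qc at 13.7, 15.02 and 10.9 TPM, so that the groups were far from overlapping. In dentate gyrus granule cells C1qa was at 1.73, 1.21 and 2.01 TPM, in layer V cortical neurons at 2.20, 3.18 and 2.00 TPM and in inhibitory interneurons at 2.33, 2.78 and 2.30 TPM. Cerebellar granule cells were lowest, with C1qa at 0.0918, 0.163 and 0.433 TPM from 3 to 12 estimated reads. C1qb and C1qc followed the same pattern, at 1.11 to 3.00 TPM over the libraries of the other neuron types and at 0.0338 to 0.127 TPM in cerebellar granule cells. In the second library of cerebellar granule cell replicate 3, labelled batch 2, C1qb was at 0.659 TPM (24 reads) and C1qc at 0.507 TPM (22 reads), against 0.0714 TPM and 0.0599 TPM (2 reads each) in its batch 1 library. The level of these chains in cerebellar granule cells thus differed between 2 libraries of 1 replicate, and the part of the batch in this was not tested.

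**Figure D1:**
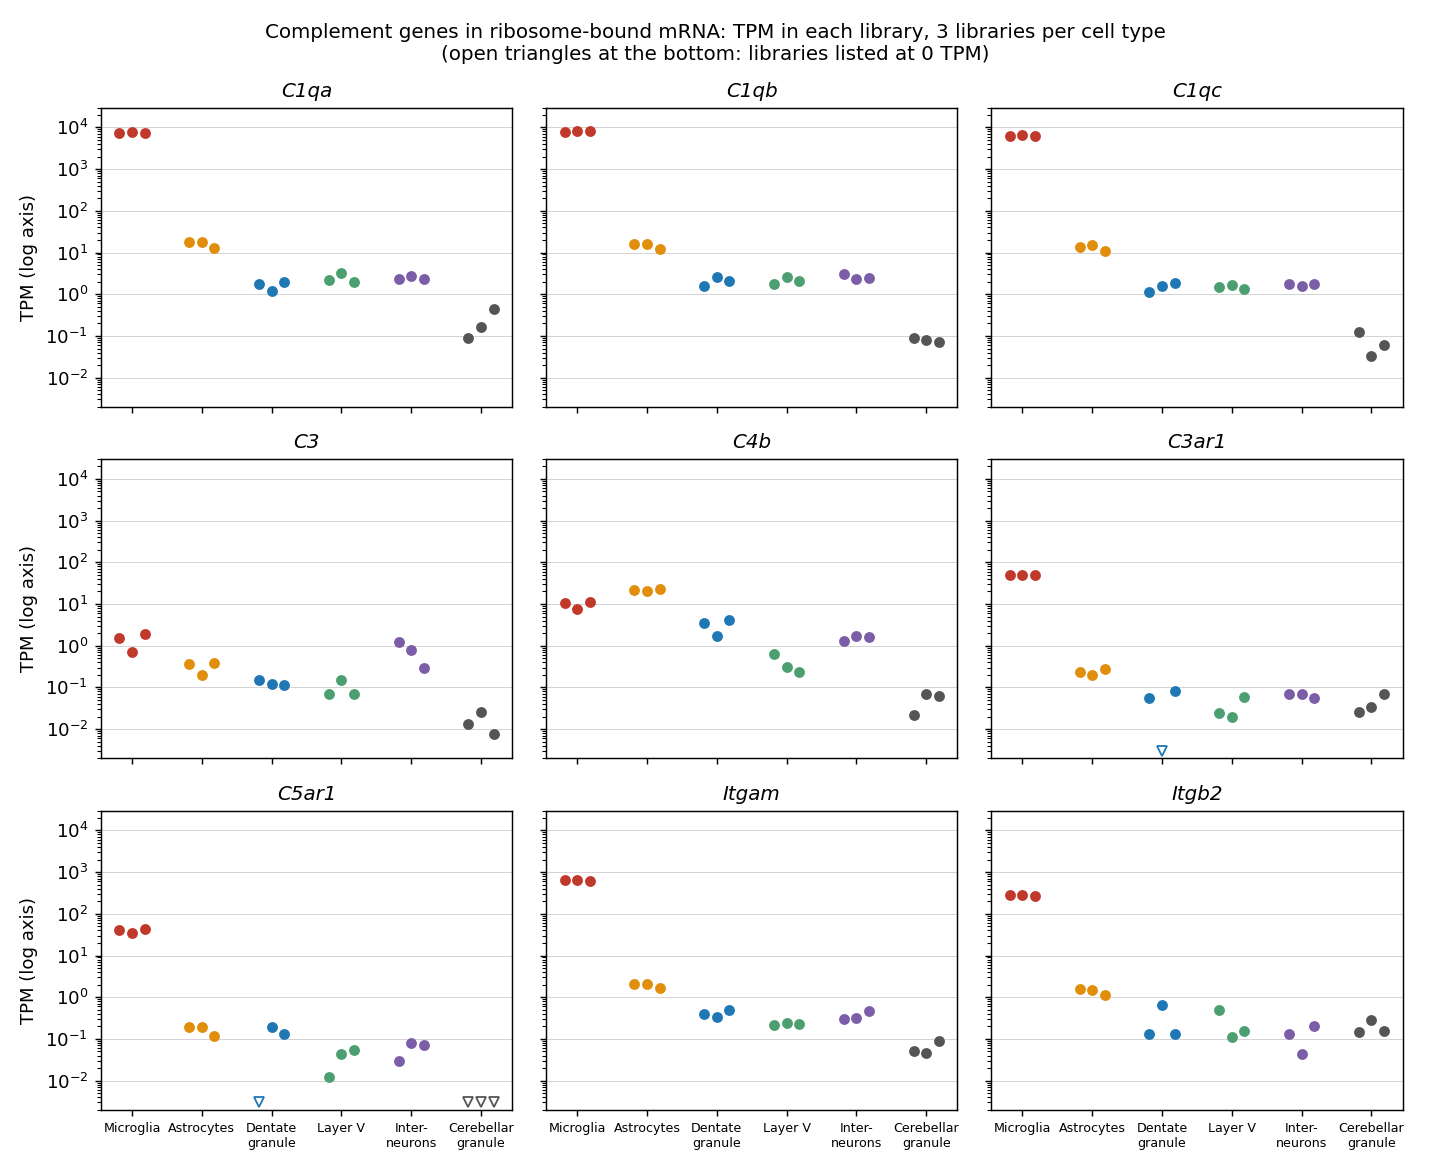
TPM on a log axis for each of the 9 complement genes (panels) in each library (points, 3 per cell type), coloured by cell type, with libraries listed at 0 TPM as open triangles at the bottom. For 7 of the 9 genes the 3 microglia points lie far above the rest, and C4b and C3 are the exceptions.

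The subunits of complement receptor 3 were the next most abundant members. Itgam (ENSMUSG00000030786.18, chromosome 7 from 128062640 to 128118491) was at 630.6, 662.9 and 615.5 TPM in microglia, rank 185 of all genes, and Itgb2 (ENSMUSG00000000290.13, chromosome 10 from 77530252 to 77565708) at 287.7, 288.0 and 267.5 TPM, rank 469. Their ratio in microglia was 2.27 ± 0.063, with little spread between replicates. Itgb2 also pairs with other alpha chains, of which Itgax was at 7.69 ± 0.826 TPM in microglia and Itgal at 0.221 ± 0.052 TPM. In astrocytes Itgam was at 2.07, 2.12 and 1.70 TPM and Itgb2 at 1.57, 1.48 and 1.13 TPM. The neuron libraries lay between 0.0469 and 0.498 TPM for Itgam and between 0.0447 and 0.667 TPM for Itgb2, and for Itgb2 these values rested on 3 to 14 reads per library.

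The anaphylatoxin receptors were lower still, again with every microglia library above every other library. C3ar1 (ENSMUSG00000040552.8, chromosome 6 from 122847138 to 122856161) was at 51.0, 49.9 and 50.8 TPM in microglia and C5ar1 (ENSMUSG00000049130.6, chromosome 7 from 16246743 to 16259540) at 39.9, 35.7 and 43.9 TPM. In astrocytes C3ar1 was at 0.235, 0.201 and 0.271 TPM and C5ar1 at 0.191, 0.198 and 0.115 TPM. In neurons C3ar1 had at most 8.005 estimated reads in a library and C5ar1 at most 6. C5ar1 was listed at 0 in all 3 cerebellar granule cell libraries, and each of these libraries could have hidden up to 3 reads. Set against that floor, the mean of 58.2 CPM (counts scaled to library size) in microglia was at least 976.5-fold higher than in cerebellar granule cells.

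C4b and C3, the precursors that C1q activation leads to, did not follow the pattern of the other 7 genes. C4b (ENSMUSG00000073418.4, chromosome 17 from 34728380 to 34743882) was highest in astrocytes, at 22.1, 20.5 and 23.2 TPM, and microglia were next at 10.9, 7.45 and 11.1 TPM. The 3 astrocyte libraries lay above the 3 microglia libraries without overlap. In dentate gyrus granule cells C4b was at 3.496, 1.70 and 4.17 TPM, in inhibitory interneurons at 1.27, 1.67 and 1.63 TPM, and in layer V cortical neurons at 0.623, 0.307 and 0.241 TPM. Cerebellar granule cells held 0.0224, 0.0688 and 0.0630 TPM, on 2 to 5.75 estimated reads. By counts the astrocyte level exceeded that of microglia with a log2 fold change of 1.71 (standard error 0.26, adjusted p = 1.3e-05, edgeR), and each further step down this order also passed the test.

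C3 (ENSMUSG00000024164.15, chromosome 17 from 57203970 to 57228136), the central component of the pathway, was scarce in every cell type. In microglia it was at 1.56, 0.689 and 1.91 TPM, in inhibitory interneurons at 1.23, 0.778 and 0.293 TPM and in astrocytes at 0.363, 0.197 and 0.388 TPM. The microglia and interneuron libraries overlapped in TPM. By counts scaled to library size they did not, with 1.85 to 3.41 CPM in microglia against 0.683 to 0.959 CPM in interneurons and a log2 fold change of 1.75 between them (standard error 0.25, adjusted p = 4.4e-06, edgeR). In interneurons the full-length transcript C3-201 carried 90.8% ± 10.6 of the C3 reads and 56.3% of the C3 TPM, the rest of the TPM being assigned to short transcripts with few reads. The C3 level relative to other genes is therefore less certain than its count. The part of the oligodendrocyte and choroid plexus mRNA of these libraries in their C3 level was not tested. C4b exceeded C3 by 69.3 times in astrocytes and by 7.06 times in microglia, as ratios of the mean TPM.

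**Figure D2:**
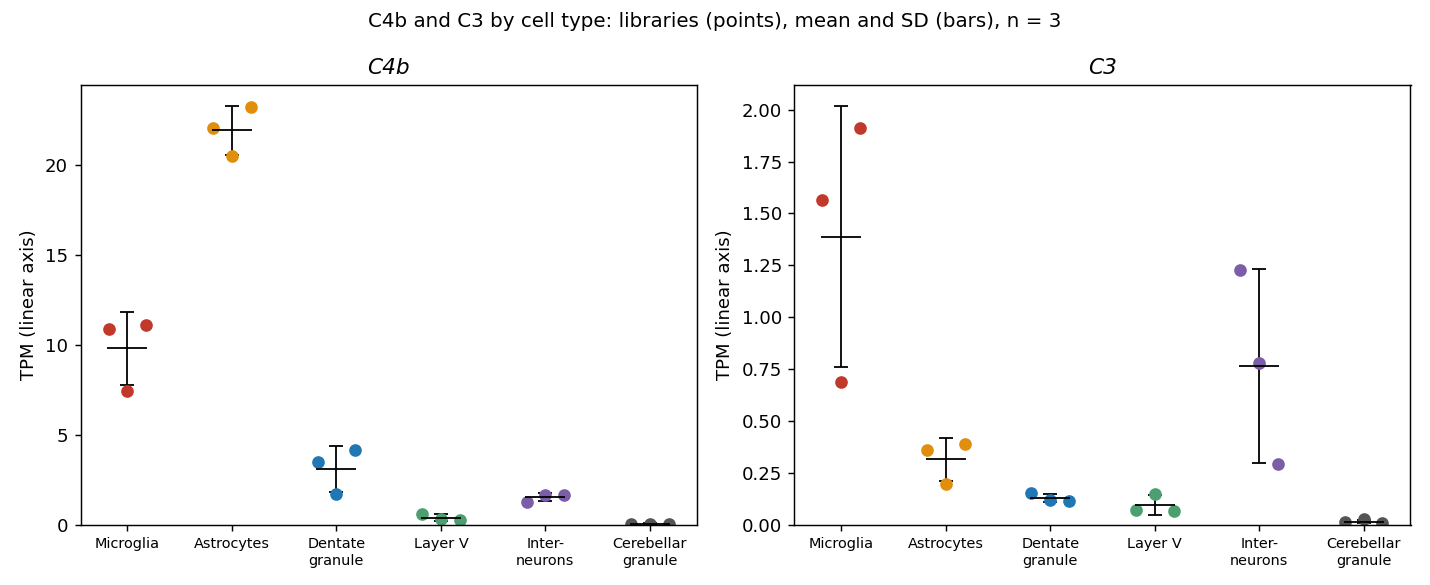
TPM of C4b and of C3 on linear axes in each library (points) with the mean and SD of 3 libraries per cell type (bars). C4b was highest in the 3 astrocyte libraries, at 20.5 to 23.2 TPM, and C3 was at most 1.91 TPM, with overlap between microglia and inhibitory interneurons.

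Within microglia the TPM of both C4b and C3 was lowest in replicate 2 and highest in replicate 3, and so was the sum of the mural cell and fibroblast markers, at 363.8, 210.7 and 709.8 TPM in replicates 1, 2 and 3. In CPM, replicate 2 was again the lowest for both genes (1.85 for C3 and 17.0 for C4b), while replicate 1 (3.41 and 26.3) stood above replicate 3 (3.01 and 25.8). The part of such cells in the C3 and C4b levels was not tested. C1qa, C1qb and C1qc were highest in replicate 2 of microglia, where these markers were lowest. In dentate gyrus granule cells the same markers summed to 124.7 to 176.4 TPM and choroid plexus markers to 103.8 to 239.0 TPM, and the C4b value of replicate 2 was the lowest while its mural and fibroblast sum was the highest. In astrocytes, C4b in the library with 3665 TPM of choroid plexus markers, replicate 1, lay between those of the other 2. Leaving out that replicate, or any other of the 18, changed no call of C4b or C3 in the microglia contrast or the astrocyte contrast, and C4b stayed between 6.14 and 6.43 on the log2 scale in the latter.

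In a fit over all 6 cell types, each of the 9 genes was higher in microglia than in the mean of the 5 other cell types (edgeR, adjusted p of at most 0.05 over 20524 genes). This mean is taken over fitted log2 levels, each cell type weighing the same, so a cell type near 0 pulls it down. Over all genes tested the same call was made for 43.4% in this direction and for 37.6% in the other, so a call alone is common. The median log2 fold change of the 9 genes was 10.84, or 10.58 with C5ar1 set to its floor in cerebellar granule cells, against 0.09 over all genes. The log2 fold changes were 12.37 for C1qc (standard error 0.07, adjusted p = 2.9e-25), 12.33 for C1qb (0.07) and 11.96 for C1qa (0.10). Those of Itgam and Itgb2 were 11.02 and 10.58, and that of C3ar1 was 9.70. The fitted value of C5ar1, 10.84, depends on the prior count because 1 cell type was at 0, and against astrocytes it was 8.22. C3 at 3.82 (standard error 0.18) and C4b at 3.33 (standard error 0.22) stood well below the others. C4b was called higher although its mean in astrocytes, 75.4 CPM, exceeded the 23.0 CPM of microglia. Its mean in cerebellar granule cells, which enters with the same weight, was 0.081 CPM. Within batch 2, which held all microglia and interneuron libraries and 1 library of each other cell type, the 9 genes were again called higher, with log2 fold changes from 3.15 for C4b to 11.71 for C1qa.

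The question for astrocytes was which complement genes stood above neurons. All 9 genes were higher in astrocytes than in the mean of the 4 neuron types, again taken over fitted log2 levels. So were 43.0% of all genes tested, while 34.1% were lower. The median log2 fold change was 3.74, against 0.14 over all genes. C4b led with a log2 fold change of 6.30 (standard error 0.22, adjusted p = 9.0e-15, edgeR), and the C1q chains followed at 3.97 to 4.45. Itgb2 was at 3.74, Itgam at 3.44, C5ar1 at 3.28 and C3ar1 at 2.57. The fitted value of C5ar1 again depends on the prior count, so its place in this order is uncertain. Its astrocyte mean of 0.194 CPM, on 6 to 20 reads, was at least 3.26-fold above the floor in cerebellar granule cells. C3 was the smallest at 1.81 (standard error 0.24, adjusted p = 2.3e-06, edgeR), and it missed the threshold when TPM was tested in place of counts (adjusted p = 0.0505, limma). Within batch 1, which held astrocytes and 3 of the neuron types, C4b was at 6.86 and C3 at 2.67. The microglia markers moved with this contrast too, Tmem119 by 4.01, Cx3cr1 by 3.96 and P2ry12 by 4.49 on the log2 scale, and blood myeloid markers summed to 7.71 to 38.5 TPM in astrocytes against at most 0.599 TPM in a neuron library. The part of carried-over microglial or blood cell mRNA in the astrocyte levels was not tested.

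To view the members beside such markers, each gene's level in a cell type was set against its own level in microglia, and 15 microglia markers were treated alike. In astrocytes the markers were at a median of 0.359% of their microglia level, from 0.212% for Selplg to 13.01% for Sall1, with the others at or below 0.717%. C1qa was at 0.215% ± 0.042, C1qb at 0.184% ± 0.029 and C1qc at 0.206% ± 0.033, so that C1qb and C1qc lay below the lowest marker and C1qa just above it. Itgam at 0.309%, Itgb2 at 0.496%, C3ar1 at 0.466% and C5ar1 at 0.421% lay within the range of the markers. C3 at 22.8% ± 7.46 and C4b at 223.3% ± 13.96 lay above it. The same split was found in each neuron type. The markers had medians of 0.0568% in dentate gyrus granule cells, 0.0455% in layer V cortical neurons, 0.0655% in inhibitory interneurons and 0.0065% in cerebellar granule cells, and the C1q chains lay within or below the marker range in each. C4b was at 31.9% ± 13.03 of its microglia level in dentate gyrus granule cells, 15.5% ± 2.29 in inhibitory interneurons, 3.98% ± 2.08 in layer V cortical neurons and 0.524% ± 0.258 in cerebellar granule cells. These shares include TPM given to short C4b transcripts on few reads. C4b was highest in astrocytes, whose mRNA the microglia markers do not trace. In the same order of neuron types, the 9 astrocyte markers summed to means of 145.5, 258.1, 178.2 and 176.2 TPM, against 15985.5 TPM in astrocytes. The part of astrocyte mRNA in these C4b levels was not tested. C3 was at 55.2% ± 33.7 in inhibitory interneurons, a share that includes the TPM given to short C3 transcripts on few reads, with means of 0.814 CPM in interneurons and 2.76 CPM in microglia by counts, and between 1.13% and 9.26% in the other neuron types. Thus the means of C3 and C4b were above the highest of the 15 markers in all 5 other cell types, and none of the other 7 genes was. C3 rested on 1 to 3 reads per library in cerebellar granule cells, 4 to 7 in layer V cortical neurons and 4 to 10 in dentate gyrus granule cells. C4b rested on 2 to 5.75 reads in cerebellar granule cells. Because C3 was low in microglia, 1 read in cerebellar granule cell replicate 3 gave 0.561%, against 0.111% for the highest marker. At such counts a place above the markers says little.

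**Figure D3:**
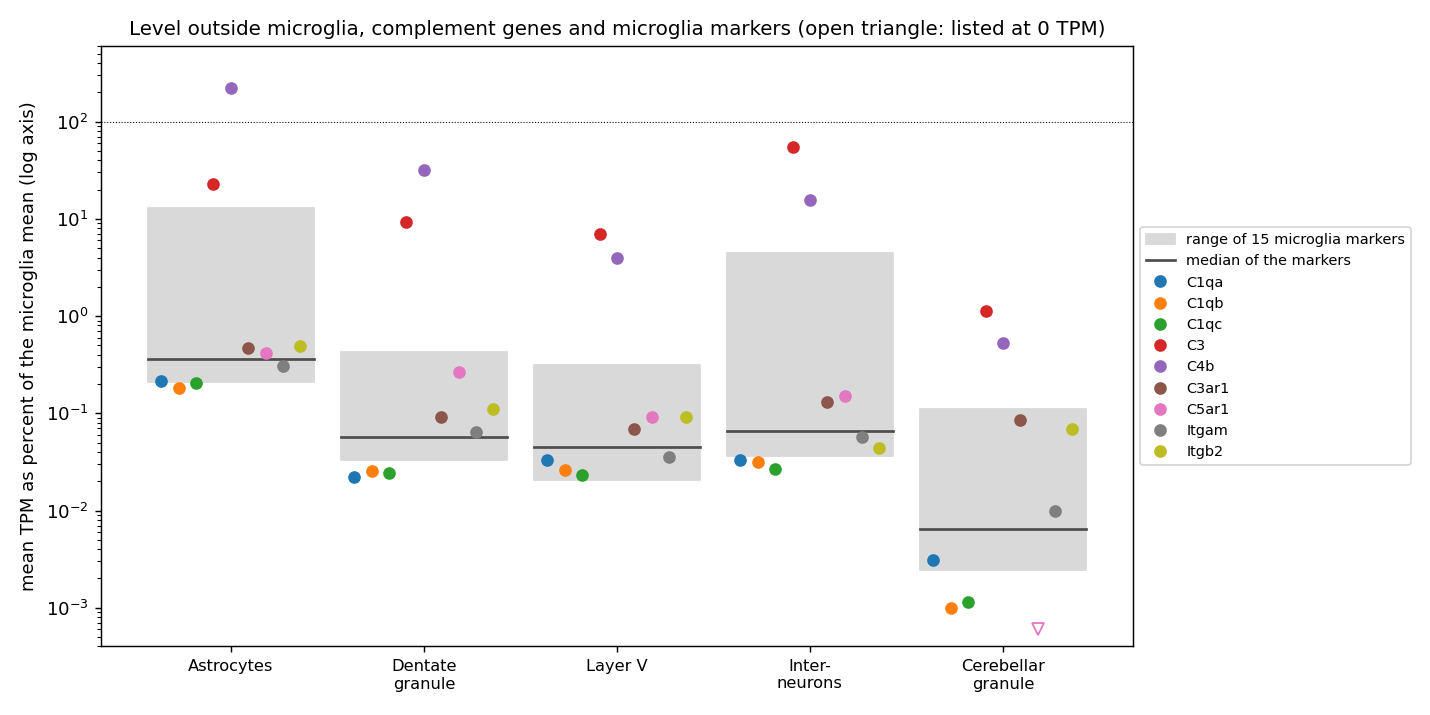
Mean TPM in each of 5 cell types as a percent of the microglia mean, on a log axis, for the 9 complement genes (points) and for 15 microglia markers (grey range with a line at the median). C3 and C4b lie above the grey range in every cell type, and C4b in astrocytes, at 223.3%, lies above the dotted line that marks the microglia level. In cerebellar granule cells the points of C3 and C4b rest on at most 5.75 reads per library.

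Among the 4 neuron types 6 of the 9 genes differed, compared with 88.3% of all genes tested. They were C1qa, C1qb, C1qc, C3, C4b and Itgam. Itgb2 (adjusted p = 0.67, edgeR) and C3ar1 (adjusted p = 0.67) did not pass, nor did C5ar1 (adjusted p = 0.067), at levels of 0 to 14 reads per neuron library, where a difference would have been hard to detect. C5ar1 passed in 4 other settings, with an adjusted p as low as 0.0101, and in 3 of the 18 fits without 1 replicate. Much of the difference in the C1q chains came with cerebellar granule cells, which were lower than the next cell type by 2.82 (C1qa), 4.497 (C1qb) and 4.33 (C1qc) on the log2 scale. The microglia markers as a whole were lowest there too, summing to 10.3 to 12.0 TPM against 25.8 to 50.9 TPM in the other neuron libraries.

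Ordering the 6 cell types by mean TPM gave 5 neighbouring pairs for each gene, and 28 of these 45 pairs differed by counts. For C1qa, C1qb, C1qc, C3ar1, C5ar1, Itgam and Itgb2 the order began with microglia and then astrocytes, and both steps passed the test. Next to these steps stand the shares of all genes called in the same pairs, 76.1% between astrocytes and microglia, 74.2% between dentate gyrus granule cells and astrocytes and 73.2% between inhibitory interneurons and astrocytes. Below astrocytes the C1q chains of dentate gyrus granule cells, inhibitory interneurons and layer V cortical neurons were mostly not distinguished from their neighbours, except that C1qa was higher in layer V cortical neurons than in dentate gyrus granule cells (log2 fold change 0.78, standard error 0.23, adjusted p = 0.0079, edgeR). For C1qa, C1qb, C1qc, C5ar1 and Itgb2, 1 pair of neighbours each had opposite order by TPM and by counts, and none of these pairs passed the test. C3ar1 and Itgb2 showed no passed step among neurons, and that of C5ar1 was to cerebellar granule cells, where it was listed at 0. C4b was the single member in which all 5 steps passed, microglia over dentate gyrus granule cells by 2.04, these over inhibitory interneurons by 1.03, these over layer V cortical neurons by 2.02 and these over cerebellar granule cells by 3.07. For C3, interneurons exceeded astrocytes (log2 fold change 0.62, adjusted p = 0.047) and astrocytes exceeded dentate gyrus granule cells (1.67), while the lower steps did not pass.

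Most genes differed between any pair of cell types. Between microglia and dentate gyrus granule cells 79.8% of the genes tested were called, 83.2% against layer V cortical neurons, 85.5% against cerebellar granule cells and 80.8% against inhibitory interneurons. Astrocytes differed from layer V cortical neurons at 77.2% and from cerebellar granule cells at 82.7%. Among neurons the shares were 63.4% for dentate gyrus granule cells against layer V cortical neurons, 73.9% against cerebellar granule cells and 63.9% against inhibitory interneurons. Layer V cortical neurons differed from cerebellar granule cells at 76.1% and from inhibitory interneurons at 60.7%, and the last 2 cell types from each other at 75.2%.

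The transcripts behind the gene sums were mostly single protein-coding ones. C1qa, C1qb and C3ar1 each have 1 transcript in the index. In microglia Itgam was divided between the protein-coding transcripts Itgam-203, with 60.7% ± 2.08 of its reads, and Itgam-201, with 39.1% ± 2.05. C5ar1 was divided nearly evenly in microglia, C5ar1-201 holding 50.2% ± 3.30 and C5ar1-202 48.6% ± 2.69. The protein-coding C4b-201 held 99.5% ± 0.283 of the C4b reads in astrocytes, 94.5% ± 0.524 in microglia and 90.4% ± 5.38 in dentate gyrus granule cells. In microglia the retained-intron transcript C4b-203 took 3.56% ± 0.246 of the reads and, being short, 23.1% of the C4b TPM. C4b has a near-identical copy, C4a, in the same 95.1 kb of chromosome 17, and reads shared by them are divided by estimation, so the level of C4b is uncertain to that extent. The C4a transcripts with over 1% of its reads in microglia or astrocytes were annotated as lncRNA or retained introns. C4a was at 3.39 ± 0.339 TPM in microglia and 0.880 ± 0.468 TPM in astrocytes. With both summed as 1 gene the log2 fold changes were 3.22 for microglia and 5.99 for astrocytes, with the same calls.

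Over the 18 libraries, the genes whose log2(TPM + 1) followed a member most closely were given by Pearson's r, as a description in which the 6 cell types set nearly all of the variation. C1qb and C1qc were closest to each other (r = 0.9993), followed by C1qa and by Tyrobp, a signalling adaptor of microglia, while C1qa was closest to Ctss, a lysosomal protease (r = 0.9989), followed by C1qc and C1qb. Itgam was closest to Hcls1, P2ry13 and Abca9, Itgb2 to Adgre1, Cd180 and Hcls1, C3ar1 to H2-Oa, Btk and Angptl7, and C5ar1 to Phf11b, Milr1 and Pvrig, all with r of at least 0.998. For C4b the closest genes were Msx1 (r = 0.989), Col11a2 and Sema4b, and for C3 they were E230013L22Rik (r = 0.938), Col6a3 and Mrvi1. At least 74 genes reached r of 0.99 with each C1q chain and 323 with Itgam, while none did with C4b or C3.

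Of 56 other genes of the complement system, 42 were tested, and 24 were higher and 7 lower in microglia than in the other cell types, beside 43.4% higher and 37.6% lower over all genes. Their median log2 fold change was 1.44, or 1.15 with 4 genes set to the floor of a cell type in which they were at 0, against 0.09 over all genes. In astrocytes relative to neurons 24 were higher and 9 lower, beside 43.0% and 34.1% over all genes, with a median of 1.10 (1.02 with those at the floor).

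The soluble regulators, which restrain activation in fluid, were mostly higher in both glial cell types. Of 6 tested, 5 were higher in microglia and 1 was lower, and 5 were higher in astrocytes. Over all genes 43.4% were higher and 37.6% lower in microglia, and 43.0% were higher in astrocytes. Vtn, which blocks the terminal complex and is also a pericyte product, was at 189.1 ± 41.2 TPM in microglia and 49.9 ± 8.22 TPM in astrocytes. Serping1, the inhibitor of C1, was at 20.8 ± 5.27 TPM in microglia and 7.45 ± 1.43 TPM in astrocytes. In microglia replicates 1, 2 and 3, Vtn was at 175.3, 136.5 and 210.9 CPM and Serping1 at 21.0, 14.8 and 23.7 CPM. The mural cell and fibroblast markers, at 363.8, 210.7 and 709.8 TPM, were likewise lowest in replicate 2 and highest in replicate 3. The part of such cells in these levels was not tested. Clu, clusterin, took the opposite course, at 6843 ± 303.6 TPM in astrocytes and 95.7 ± 5.69 TPM in microglia, a log2 fold change of 5.497 over neurons in astrocytes and of -1.83 in microglia.

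The proteases that carry C1q activation onward were scarce beside C1q itself. Of 7 initiating proteases and lectins tested, 5 were higher in microglia and 6 in astrocytes. Beside these and the next lists stand the shares of all genes, 43.4% higher in microglia and 43.0% in astrocytes. C1s1, a protease of the C1 complex, was at 1.25 ± 0.456 TPM in microglia. Masp1, a protease of the lectin pathway, was at 37.0 ± 2.99 TPM in inhibitory interneurons and 22.1 ± 2.39 TPM in astrocytes. By counts the order was reversed, with 29.6 to 31.7 CPM in interneurons and 40.6 to 48.8 CPM in astrocytes. The log2 fold change of Masp1 for astrocytes over the mean of the neuron types was 3.88. Fcna, a ficolin, was at 0.378 ± 0.068 TPM in microglia. Of 5 other convertase components tested, 4 were higher in microglia and 5 in astrocytes, among them C2 (5.00 ± 0.885 TPM in microglia and 5.25 ± 1.15 TPM in astrocytes), Cfb (0.718 ± 0.209 TPM in microglia) and Cfp, properdin (17.5 ± 1.86 TPM in microglia). The terminal components C7, C8a and C8g were at means of at most 1.78 TPM, with 2 of 3 higher in microglia and 2 of 3 in astrocytes.

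**Figure D4:**
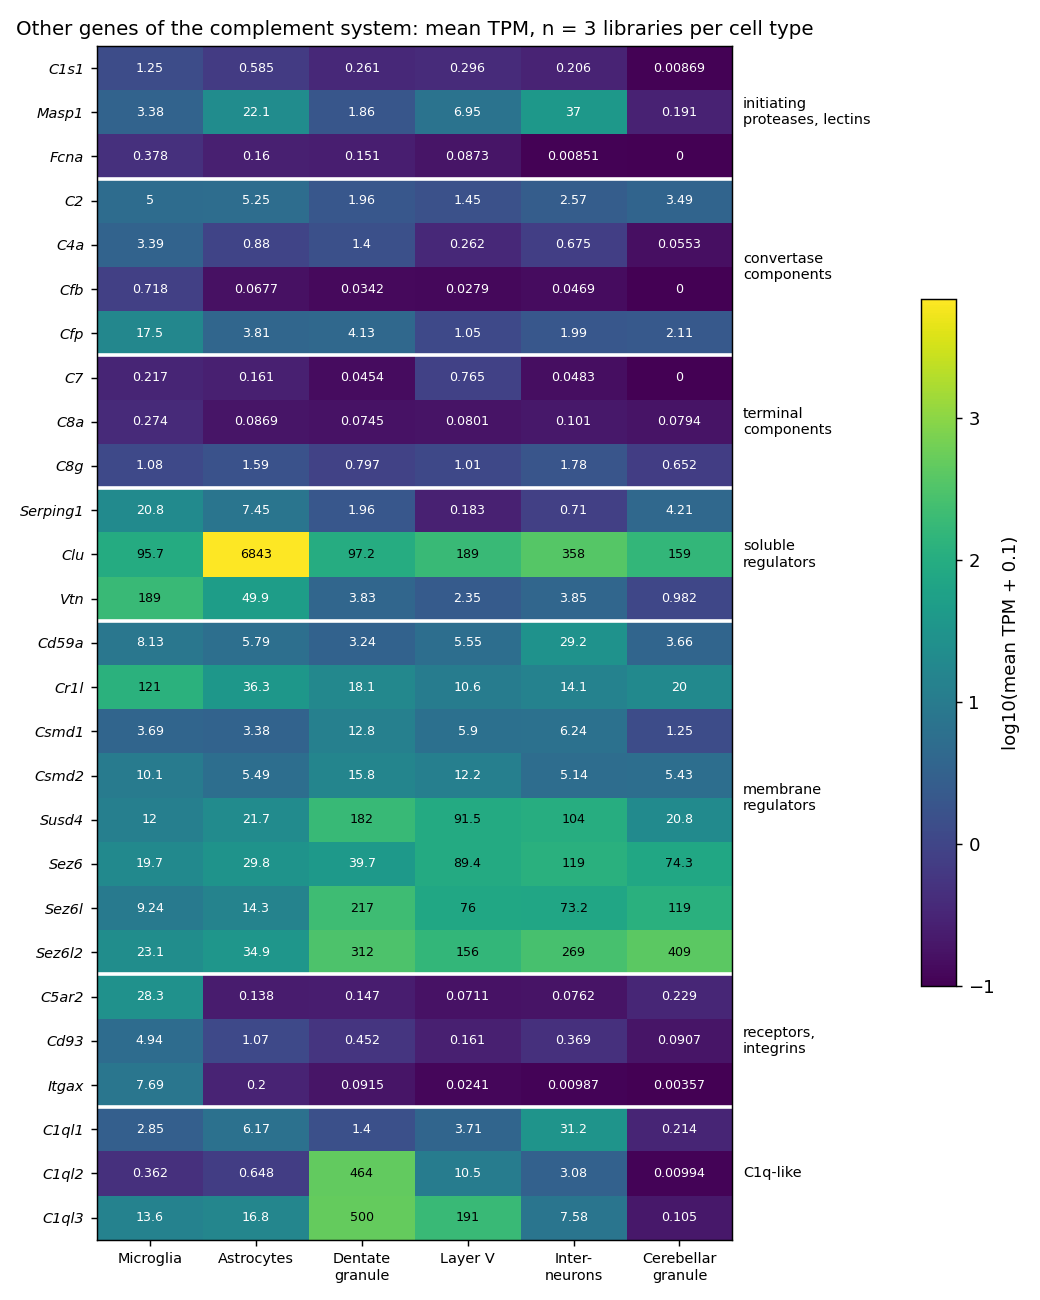
Mean TPM of 3 libraries (numbers) and log10(mean TPM + 0.1) (colour) for the named genes of the complement system outside the 9 members, by list (rows) and cell type (columns). Clu stands out in astrocytes at 6843 TPM, Sez6l and Sez6l2 in the neuron types, and C1ql2 and C1ql3 in dentate gyrus granule cells.

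Of 12 membrane regulators tested, 4 were higher and 5 lower in microglia, where 43.4% and 37.6% of all genes were, and 2 were higher and 8 lower in astrocytes, where 43.0% and 34.1% were. All 12 differed among neuron types, as did 88.3% of all genes. Cr1l (Crry), the main rodent inhibitor of C3 and C4 deposition on cells, was at 120.6 ± 6.31 TPM in microglia, 36.3 ± 1.16 TPM in astrocytes and 10.6 to 20.0 TPM as means in neurons. Sez6, Sez6l, Sez6l2 and Susd4, which carry complement control domains, were called lower in both microglia and astrocytes. Sez6l2 was at 156.0 ± 5.54 to 408.9 ± 8.50 TPM in the neuron types and at 23.1 ± 0.901 TPM in microglia, and Susd4 at 182.4 ± 13.6 TPM in dentate gyrus granule cells and 12.0 ± 1.18 TPM in microglia. Csmd1 was at 12.8 ± 0.839 TPM in dentate gyrus granule cells, and Csmd2 at 15.8 ± 0.480 TPM. Cd59a, which blocks pore formation, was at 29.2 ± 6.81 TPM in inhibitory interneurons and 8.13 ± 2.03 TPM in microglia. The oligodendrocyte markers were highest in the same interneuron libraries, at a mean sum of 2927 TPM against 609.8 TPM in microglia, and their part in the interneuron levels of Cd59a, Masp1 and C1ql1 was not tested.

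Of 6 other receptors and integrin partners tested, 4 were higher in microglia and 3 in astrocytes, where 43.4% and 43.0% of all genes were. C5ar2, the second receptor of C5a, was at 28.3 ± 0.629 TPM in microglia and at most 0.322 TPM in any other library (log2 fold change 8.04, standard error 0.12, adjusted p = 3.5e-20, edgeR), and in astrocytes it did not pass (0.47, adjusted p = 0.13, edgeR). Itgax reached a log2 fold change of 8.26 in microglia, and Cd93 was at 4.94 ± 0.785 TPM there. In microglia replicates 1, 2 and 3, Cd93 was at 20.5, 15.1 and 18.9 CPM. The endothelial markers summed to 405.7, 275.1 and 349.6 TPM in these libraries, and the part of such cells in the Cd93 level was not tested. The C1q-like proteins, which share a domain with C1q and act at synapses, were highest in neuron types. C1ql2 was at 463.9 ± 32.3 TPM and C1ql3 at 500.2 ± 23.8 TPM in dentate gyrus granule cells, and C1ql1 at 31.2 ± 1.94 TPM in inhibitory interneurons. Of the 3 tested, 1 (C1ql2) was lower in microglia, as were 37.6% of all genes. All 3 differed among neuron types, as did 88.3% of all genes.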

How the data were processed

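Ribosome-bound mRNA of 6 cell types was sequenced as stranded libraries. The authors trimmed reads with cutadapt 3.5, quantified them with kallisto 0.46.2 on GENCODE M24 transcripts, and deposited, for each transcript and library, estimated counts, which are not normalized, and TPM, which the authors' tool scales for length and library size. The study's own test, sleuth, was not run here.

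Counts and TPM were summed by versioned gene identifier, and the symbol of each member had 1 identifier. Where a replicate had a library in both batches, its batch 1 library was used. The sums, made whole by rounding, entered 1 fit of 18 libraries by edgeR 4.0.16 (TMM, quasi-likelihood test, filterByExpr with a minimum count of 10) in R 4.3.3, with Benjamini-Hochberg adjustment over 20524 genes and a threshold of 0.05. The standard error is the log2 fold change over the root of F. All 9 members passed the filter. Alternatives used DESeq2 1.42.0, limma 3.58.1 on log2(TPM + 0.1), RLE factors, other filters, the batch 2 libraries, batch as a covariate, single batches, the replicate number as a block, and fits without each replicate. Other steps ran in Python 3.11.15 with pandas 2.3.3 and numpy 2.4.6. Tested on simulated data for the microglia contrast, the fit recovered 200 of 200 genes changed 4-fold and called 14 unchanged ones among 20524.

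Totals were 38270477 to 71440915 estimated counts per library, so 1 read is a small share of a library, and levels of a few reads carry counting error of their own. The floor for a gene at 0 was 3 counts per library. Gene positions are those of GENCODE release M21 on GRCm38, matched by versioned identifier. Named were the 9 members, pathway genes with a mean of at least 10 TPM in some cell type or among the 3 largest called fold changes of their list, the 3 genes most like each member, and fixed markers. Itgal, Selplg and Sall1 were named after their values were seen. Some genes that this rule names are not reported here. The members and gene lists were chosen with earlier results of these data known. Whether mice were shared between cell types is not given in the sources used here, and p-values measure the spread between these samples. The 2 libraries of layer V neuron replicate 1 carry different sexes in the labels.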

Additional observations from a re-analysis of the deposited data

How the results depend on the processing

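No log2 fold change of a member changed its direction under any alternative, and 9 members were called higher in microglia in each alternative that could give the count. In astrocytes 9 were called in each, except 8 with limma on log2(TPM + 0.1), where C3 had a log2 fold change of 0.70 and an adjusted p of 0.0505. Of the neighbouring pairs in the order of cell types, 24 (limma) to 29 (batch 2 libraries) differed, and 25 to 29 without 1 replicate. C5ar1 among neuron types passed the threshold with no filter on low counts (0.0181), with the batch 2 library in place of batch 1 (0.0101), with batch as a covariate beside that (0.0174) and with DESeq2 (0.0167), and C3ar1 did so in the batch 2 libraries alone (0.00555). Without 1 replicate, the adjusted p of C5ar1 among neuron types ran from 0.0310 to 0.164, under the threshold without dentate gyrus granule cell replicate 1, astrocyte replicate 2 (0.0329) or astrocyte replicate 3 (0.0349). The cause of these changes was not tested. In the 3 contrasts, the fits without 1 replicate changed no other call of a member, with 483 of 486 values on the same side of the threshold. With the batch 2 libraries, 4 of the 45 levels relative to microglia moved by more than the spread between replicates: C3 in dentate gyrus granule cells to 11.7%, C3ar1 in astrocytes to 0.395%, and C1qb (0.00339%) and C1qc (0.00347%) in cerebellar granule cells. Same-numbered replicates deviated together weakly at most (correlations from -0.08 to 0.19 over 45 pairs, 15 of them over 0.1). With 3 libraries per cell type these values cannot exclude that some samples were paired, and the main fit treats them as unpaired. With the replicate block the log2 fold changes of C4b were 3.33 in microglia and 6.32 in astrocytes, and the block changed no call of a member in the 3 contrasts, while 26 in place of 28 neighbouring pairs in the order differed. Depth limits the neuron levels of C3ar1, C5ar1 and Itgb2, and of C3 outside interneurons, which rest on 0 to 14 reads per library.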
